A study of Mus musculus with 24 samples.

Results

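The comparison described here set peritumoral against contralateral subcutaneous fat of the 4th mammary gland in mice fed a high-fat diet (HFD). The 4 libraries whose titles begin HFD_L are labelled peritumoral and the 4 whose titles begin HFD_R are labelled contralateral, so 8 of the 24 libraries of the series were used for the main comparison and every gene was considered. The series covers C57BL/6 mice on Chow or HFD, with fat from tumor-free, contralateral and peritumoral positions and 4 libraries in each of the 6 groups. Its design text calls the animals lean and obese and places the fat near to or far from a breast tumor, and its title concerns creatine exchanged between adipocytes and cancer cells. The fat was flash-frozen, and libraries were made from its total RNA after DNase digestion and removal of ribosomal RNA. Both groups compared here carried the same strain and the same diet, and the sources used here do not state sex, age or the tumor line. The titles place each peritumoral sample on L and each contralateral sample on R, so tumor position and body side cannot be told apart. The labels do not tie the 4 replicates of a group to different mice, and p-values therefore reflect only library-to-library spread, possibly technical.

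White adipose tissue holds lipid-filled adipocytes among progenitors, fibroblasts, vessels and resident macrophages. Adipocytes take up and esterify fatty acids under insulin, release them by lipolysis, burn branched-chain amino acids and secrete hormones such as leptin and adiponectin. Obesity is known to draw macrophages into fat, and fat beside a mammary tumor is in direct contact with tumor and immune cells and with the matrix that fibroblasts lay down.

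Depth was even, with 15982962 to 18204747 counts per peritumoral library and 16668320 to 17287693 per contralateral library. Adipocyte identity was clear in all 8 libraries, since adiponectin (Adipoq) read at least 1163 CPM (counts scaled to library size) and perilipin 1 (Plin1) at least 322.6 CPM in each. The first principal component of the 8 libraries held 64.5% of the variance and separated the groups, with contralateral scores from -44.37 to -29.86 and peritumoral scores of -0.6, 70.67, 29.26 and 50.06 for replicates 1 to 4. Peritumoral replicate 1 lay nearest to the contralateral libraries (mean r = 0.979 across genes) and replicate 2 farthest (0.922). Among the genes that rose, replicate 1 was the lowest peritumoral library for 77.1% and replicate 2 the highest for 68.9%. Mitochondrial ribosomal RNA took 26.0 ± 1.79% of counts in peritumoral and 23.8 ± 0.954% in contralateral libraries (mean ± SD, n = 4 each; two-sided exact permutation p = 0.171).

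Peritumoral fat on HFD carried higher levels of macrophage, chemokine, interferon-response and cell cycle genes and lower levels of adipocyte and mitochondrial fuel-burning genes than contralateral fat. Differences are given as log2 fold changes, peritumoral minus contralateral, ± SE from edgeR's quasi-likelihood test, with p-values adjusted by Benjamini and Hochberg over all genes tested. Of 15627 genes, 4610 (29.5%) passed an adjusted p of 0.05, 2631 of them higher (16.8% of genes tested) and 1979 lower (12.7%). Genes that rose changed by more, since 892 rose and 130 fell by over 2-fold, and the median change was 0.73 among those that rose and -0.55 among those that fell. The 130 became 441 without peritumoral replicate 1 and 76 and 85 without peritumoral replicates 2 and 4. Over 4-fold, 305 genes rose and 3 fell. The median over all tested genes was -0.02, and 43.4% had an unadjusted p under 0.05. The number called fell to 3034, 2960 or 2750 without contralateral replicate 1, 2 or 3 and to 2866 without peritumoral replicate 4, and was 6425 without peritumoral replicate 1. The number called lower moved from 1979 to 1052, 1041, 967 and 1081 without contralateral replicates 1 to 4, to 2985, 1211 and 1006 without peritumoral replicates 1, 3 and 4. In bulk tissue, fewer cells of a type and less RNA per cell cannot be told apart.

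**Figure D1:**
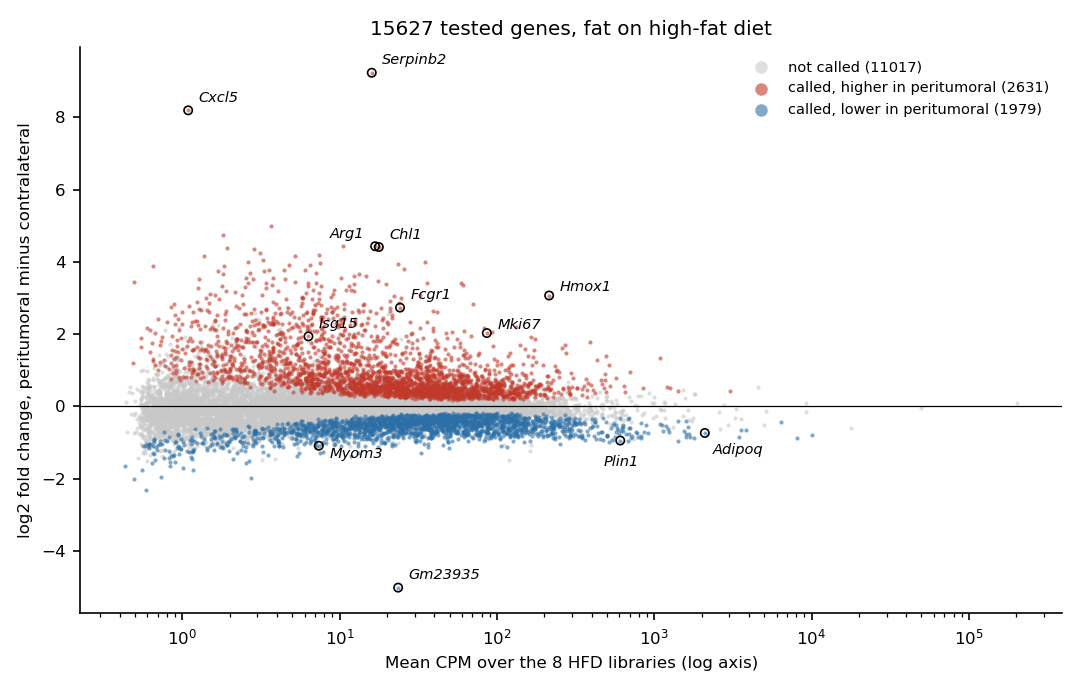
Each point is one of the 15627 tested genes, with its mean level over the 8 HFD libraries (CPM, log axis) against its log2 fold change, peritumoral minus contralateral. Red marks the 2631 genes called higher and blue the 1979 called lower at an adjusted p under 0.05, and circles mark genes named in the text. Large changes lie mostly above 0.

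The gene with the lowest p was Chl1, which encodes a neural cell adhesion molecule of the L1 family and lies on chromosome 6 (mm10, 103510876 to 103733035, plus strand). It read 33.8, 44.0, 30.2 and 27.8 CPM in peritumoral replicates 1 to 4 and 2.12, 1.78, 1.29 and 1.19 CPM in the contralateral ones. The lowest peritumoral library thus stood far above the highest contralateral one, and the difference was 4.41 ± 0.22 (adjusted p = 4.01e-05). Tumor-free fat on HFD read 2.19 ± 0.343 CPM (SD, n = 4), close to the contralateral level. Other leading genes were mostly those of myeloid cells. Fcgr1, the high-affinity receptor for IgG (chromosome 3, 96282909 to 96293969, minus strand), read 31.9, 51.2, 36.1 and 49.3 against 5.63, 5.90, 6.03 and 7.89 CPM and rose by 2.73 ± 0.19 (adjusted p = 0.000158). The macrophage scavenger receptor Msr1 rose by 2.62 ± 0.18, the membrane protein gene Ms4a6d by 2.64 ± 0.19 and the lectin receptor Clec4e by 3.79 ± 0.28. Bst1, an ectoenzyme that acts on NAD, rose by 3.21 ± 0.22, and the sphingosine 1-phosphate receptor S1pr3 by 1.35 ± 0.10. Matrix genes stood among them too. Col12a1, a collagen that coats collagen fibrils, read 153.8, 229.9, 253.2 and 234.5 against 45.9, 48.9, 45.3 and 52.6 CPM and rose by 2.19 ± 0.15, and Cthrc1, secreted by activated fibroblasts, rose by 3.23 ± 0.23. None of these genes overlapped between the groups, which was a condition for naming them.

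The genes that led among those that fell changed by about 1 on the log2 scale. Tmem179, a membrane protein gene, read 28.3, 12.2, 16.2 and 18.8 CPM in peritumoral and 49.9, 48.3, 41.6 and 47.0 CPM in contralateral fat, a difference of -1.30 ± 0.21 (adjusted p = 0.00357). Nat8l, the enzyme that makes N-acetylaspartate, differed by -1.12 ± 0.22, and Abhd15, known from adipocyte lipolysis, by -1.02 ± 0.18. Nkd1, an inhibitor of Wnt signalling, fell by 1.04 ± 0.16, the transcription factor gene Dmrt2 by 1.06 ± 0.18 and the kinase gene Dclk3 by 1.38 ± 0.21. The sarcomere genes Myom3 and Myl4 differed by -1.09 ± 0.15 and -1.10 ± 0.16, with contralateral values of 9.16 to 10.5 and 16.1 to 25.2 CPM. Cib2 (-1.03 ± 0.16), Cys1 (-1.30 ± 0.23), Hr (-1.11 ± 0.21) and Zfp503 (-1.04 ± 0.20) completed this group. The 3 genes that fell by over 4-fold lay outside the rule for naming and were picked after their values were seen. Gm23935, a gene of 57 exon bases, read 2.42, 1.32, 1.33 and 0.484 against 86.0, 62.8, 30.2 and 3.88 CPM and differed by -5.02 ± 0.87 (adjusted p = 0.00451, and 0.121 by limma). Mfsd4b2 and Mecomos differed by -2.32 ± 0.36 and -2.02 ± 0.33, both from contralateral levels under 2 CPM.

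Of the creatine genes, the enzyme for the first step of synthesis rose and the others did not pass the test. Gatm makes guanidinoacetate from arginine and glycine, and lies on chromosome 2 (122594467 to 122611303, minus strand). Its level was 12.5, 37.2, 24.6 and 36.6 CPM in peritumoral and 8.53, 8.79, 7.14 and 7.58 CPM in contralateral fat. Peritumoral replicate 1 was the lowest of its group and still above each contralateral library, and Gatm rose by 1.80 ± 0.30 (adjusted p = 0.00419). Gamt, which methylates guanidinoacetate to creatine, differed by -0.27 ± 0.13 (adjusted p = 0.151, and 0.0415 by limma). The transporter Slc6a8 differed by 0.38 ± 0.17 (0.113), and passed without peritumoral replicate 1 (0.0283) and in 1 fit of all 24 libraries (0.0174). The cytosolic kinase Ckb differed by -0.13 ± 0.13 (0.48). The mitochondrial kinase Ckmt1 read under 2 CPM in each of the 8 libraries and differed by -0.19 ± 0.48 (0.781). Ckm and Ckmt2 were too low to test, with Ckm at 10.6 CPM in peritumoral replicate 2 and at most 0.24 CPM elsewhere.

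Genes that handle arginine, the other use of the same substrate, rose with Gatm. In this list 8 of 14 rose and 2 fell, against 16.8% and 12.7% of all genes tested, so the share that fell was near that of all genes. Arg1, the arginase of alternatively activated macrophages, read 19.7, 66.6, 11.8 and 30.6 CPM against 1.03, 1.84, 0.677 and 2.44 CPM and rose by 4.43 ± 0.60 (adjusted p = 0.00173). Ornithine decarboxylase (Odc1), the first step toward polyamines, read 32.4, 168.3, 78.7 and 119.3 against 29.1, 24.04, 19.5 and 22.2 CPM. The groups did not overlap, though peritumoral replicate 1 came within 4 CPM of a contralateral library, and Odc1 rose by 2.08 ± 0.41 (adjusted p = 0.00776). The inducible nitric oxide synthase Nos2 rose by 2.10 ± 0.46, the arginine importer Slc7a1 by 1.04 ± 0.24, while the endothelial synthase Nos3 fell by 0.70 ± 0.16.

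**Figure D2:**
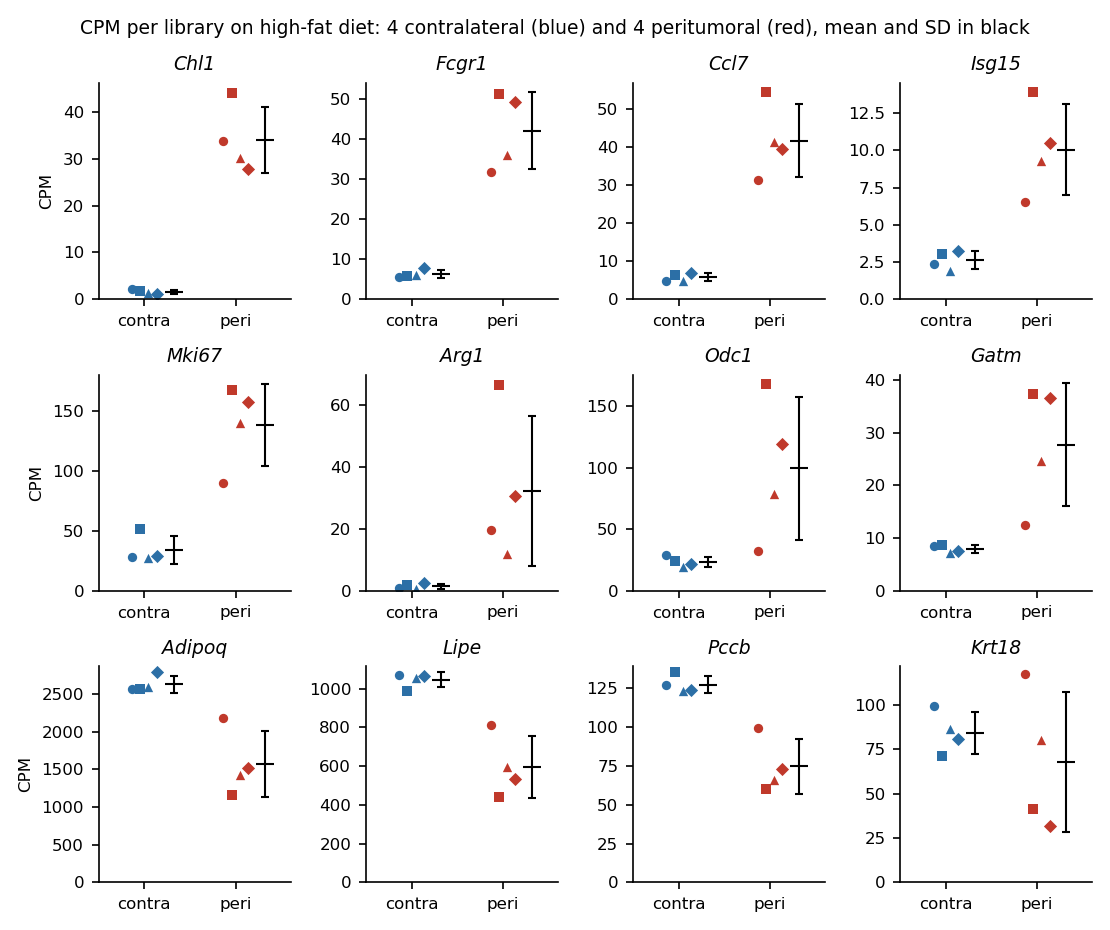
CPM of 12 genes in each of the 4 contralateral (blue) and 4 peritumoral (red) HFD libraries, with circle, square, triangle and diamond for replicates 1 to 4 and the group mean and SD in black. Peritumoral replicate 1 (circle) sits closest to the contralateral level for most genes, and Krt18 overlaps between groups.

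Macrophage genes rose together. Of 17 macrophage markers 13 rose and none fell, with a median of 0.96 against -0.02 over all genes, and their summed level was 2588 to 3990 CPM in peritumoral and 1380 to 1766 CPM in contralateral libraries. The mannose receptor Mrc1 read 595, 555.4, 915.7 and 805.2 against 263.6, 244, 317 and 279.1 CPM and rose by 1.39 ± 0.17 (adjusted p = 0.00109). Adgre1, which encodes F4/80, rose by 0.91 ± 0.12 and the complement subunit C1qa by 0.96 ± 0.13. Markers of resident, tissue-lining macrophages rose as well, with Lyve1 at 1.71 ± 0.28 and the folate receptor Folr2 at 1.15 ± 0.16. The integrin Itgam, carried by macrophages, monocytes and neutrophils, rose by 1.47 ± 0.11. Lipid-associated macrophage genes were mixed, with 5 of 17 higher, 1 lower and a median of 0.26. Over all genes tested, 16.8% were higher and 12.7% lower. Spp1, encoding osteopontin, read 22.2, 75.9, 37.8 and 57.01 against 8.41, 2.34, 0.923 and 2.13 CPM and rose by 3.81 ± 0.59, and the cholesterol ester hydrolase Nceh1 rose by 1.34 ± 0.27. Apoe, the apolipoprotein with the highest count in that list, differed by -0.39 ± 0.18 (adjusted p = 0.119), and Acp5, an acid phosphatase of osteoclasts and macrophages, fell by 0.81 ± 0.15. Without contralateral replicate 1, 2 or 3, or peritumoral replicate 3 or 4, the 5 of this list became 3.

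Monocyte and neutrophil genes also rose. All 7 monocyte markers rose (median 2.34), with summed levels of 422.9 to 488.3 CPM against 122.6 to 187.1 CPM. The chemokine receptor Ccr2 lost its call in 11 of 17 alternatives (adjusted p up to 0.15), where 6 of the 7 stayed called. Those were limma, upper-quartile factors, no low-count filter, leaving out any 1 library other than contralateral replicate 3, and leaving out peritumoral replicates 1 and 2 together. Versican (Vcan), a matrix proteoglycan that monocytes also make, read 250.9, 280.3, 265.9 and 245.7 against 87.9, 76.5, 65.6 and 46.5 CPM, a narrow spread on the peritumoral side, and rose by 1.92 ± 0.17 (adjusted p = 0.000296). Chil3, a chitinase-like protein of activated myeloid cells, rose by 3.35 ± 0.34, Ly6c2, the surface marker of classical monocytes, by 2.97 ± 0.43 and Plac8 by 1.79 ± 0.20. Of 9 tested neutrophil markers 7 rose and none fell (median 1.76). The granulocyte growth factor receptor Csf3r read 14.3, 24.1, 24.9 and 24.9 against 4.90, 4.795, 5.29 and 7.52 CPM and rose by 1.98 ± 0.22. The chemokine receptor Cxcr2 rose by 2.62 ± 0.40 and the calcium-binding alarmin S100a9 by 2.11 ± 0.41.

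Chemokine ligands that attract monocytes and neutrophils rose beside them. Of 19 tested genes of the chemokine list 11 rose and none fell (median 1.77), against 16.8% and 12.7% of all genes tested. By limma, and without peritumoral replicate 1, 1 of the list fell. Chemokines kept in other lists are not counted here, among them Cxcl10, which rose, and Cxcl11, which fell. Ccl7, a monocyte attractant on chromosome 11 (82045712 to 82047525, plus strand), read 31.3, 54.4, 41.4 and 39.6 against 4.96, 6.46, 4.86 and 6.89 CPM and rose by 2.86 ± 0.19 (adjusted p = 0.000158). Its neighbours in the same family followed, with Ccl2 at 3.41 ± 0.31, Ccl8 at 3.37 ± 0.28 and Ccl12 at 3.34 ± 0.28. The macrophage chemokines Ccl6 and Ccl9 rose by 1.77 ± 0.19 and 1.63 ± 0.17 from contralateral levels of 143.2 to 228.1 and 99.8 to 151.6 CPM. Cxcl5, a neutrophil attractant, had 0 counts in the 4 contralateral libraries and 26, 58, 16 and 49 counts in the peritumoral ones, at least 47.3-fold higher against a floor of 3 counts over the contralateral group. Cxcl2, another ligand of Cxcr2, read 3.43, 5.23, 11.3 and 6.42 against 0.847, 0.369, 0.0616 and 0.627 CPM and rose by 3.78 ± 0.54. Eotaxin (Ccl11), which draws eosinophils, differed by -0.35 ± 0.14 (adjusted p = 0.0912, and 0.0105 without peritumoral replicate 1).

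Inflammatory cytokine genes followed the chemokines, with 10 of 12 tested genes higher and none lower (median 1.98). Il1b read 11.7, 37.1, 28.1 and 21.5 against 3.63, 1.84, 1.11 and 1.19 CPM and rose by 3.66 ± 0.44 (adjusted p = 0.00108). Il33, an alarmin of stromal cells, read 44.3, 59.5, 34.0 and 39.3 against 15.3, 16.4, 11.3 and 10.1 CPM and rose by 1.75 ± 0.21. The gp130 ligand oncostatin M (Osm) rose by 3.40 ± 0.44 and the inducible prostaglandin synthase Ptgs2 by 3.13 ± 0.62. Il6 had 11, 41, 20 and 12 counts against 4, 0, 0 and 1 and rose by 3.88 ± 0.79. Tnf rose by 1.33 ± 0.41 (adjusted p = 0.0352), and lost the call without contralateral replicate 1, 3 or 4 or peritumoral replicate 2 or 4, with adjusted p up to 0.088. Genes of immune checkpoints and suppression rose in 9 of 12 tested members and fell in none (median 1.6). The costimulatory receptor Cd40 read 4.89, 16.7, 9.41 and 9.80 against 2.54, 1.72, 2.28 and 2.19 CPM and rose by 2.23 ± 0.34. Cd274, encoding PD-L1, read 17.1 to 31.0 against 13.1 to 22.2 CPM, with overlap, and differed by 0.62 ± 0.21 (adjusted p = 0.0505). It passed in 9 of 17 alternatives, among them DESeq2 (0.0209) and the fits without contralateral replicate 4 (0.03) or peritumoral replicate 1 (0.00699).

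The type I interferon response was higher as a whole. In cells, type I interferon induces its target genes through the interferon-stimulated response element, and the induced proteins sense or degrade viral RNA. All 26 listed genes rose, from 0.44 ± 0.07 for the RNA sensor Ifih1 to 2.73 ± 0.30 for the oligoadenylate synthetase Oas3, with a median of 1.20, and 26 were called under each alternative tried. Their summed level was 998, 1492, 1176 and 1319 CPM in peritumoral and 568.5, 623.9, 635.7 and 631.8 CPM in contralateral libraries. Oasl2 read 71.6, 98.3, 95.7 and 96.6 against 30.6, 34.2, 38.0 and 32.6 CPM and rose by 1.43 ± 0.12 (adjusted p = 0.000233). Isg15, the ubiquitin-like modifier (chromosome 4, 156199424 to 156200818, minus strand), read 6.52, 13.9, 9.29 and 10.5 against 2.36, 3.01, 1.91 and 3.26 CPM and rose by 1.94 ± 0.26. Oasl1 rose by 2.63 ± 0.25, the tetratricopeptide protein gene Ifit1 by 1.53 ± 0.15, the RNA sensor Dhx58 by 1.34 ± 0.11 and the sensor of Z-form nucleic acids Zbp1 by 2.03 ± 0.15. The transcription factor Irf7 rose by 1.30 ± 0.14. In each of these genes the lowest peritumoral value was above the highest contralateral one, as in 16.8% of all genes tested.

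The promoters of these genes carried the response element often. RefSeq promoters on GRCm38.p6, from 250 bases before to 50 after each start site, were found for 18 of the 26 genes and searched on both strands for the interferon-stimulated response element, written as GAAA, then 2 bases of any kind, then GAAA. It stood in 11 of the 18 (61.1%), in 10 of the 13 interferon-gamma response genes with a promoter (76.9%) and in 1079 of the 27025 genes of the table (3.99%). The search describes letters and does not show a bound site. Both lists were made of interferon-response genes, so these shares describe the lists and not the samples compared here. Stretches before the start site of the 5 called genes with the motif and the lowest p follow, because they let the spacing and number of copies be seen. Capitals mark the motif, on either strand, and letters run 5′ to 3′ on the strand of the gene. They lie at chr5:120907526-120907575 (minus strand, Oas1a), chr19:34640755-34640843 (plus, Ifit1), chr5:120777695-120777764 (minus, Oas3), chr10:128270248-128270315 (plus, Stat2) and chr4:156200845-156200926 (minus, Isg15).
Oas1a: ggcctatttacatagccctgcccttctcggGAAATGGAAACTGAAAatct
Ifit1: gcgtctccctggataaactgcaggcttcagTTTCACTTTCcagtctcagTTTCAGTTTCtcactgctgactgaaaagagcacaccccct
Oas3: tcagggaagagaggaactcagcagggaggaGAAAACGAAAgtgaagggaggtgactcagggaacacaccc
Stat2: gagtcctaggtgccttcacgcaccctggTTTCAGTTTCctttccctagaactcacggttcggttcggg
Isg15: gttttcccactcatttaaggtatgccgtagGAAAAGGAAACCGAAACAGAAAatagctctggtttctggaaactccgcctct
Isg15 holds 3 overlapping copies, Oas1a 2 overlapping copies and Ifit1 2 separate ones.

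Genes induced by interferon-gamma changed less evenly, with 8 of 16 tested higher, 1 lower and a median of 0.45. The GTPase Irgm1 read 44.7, 73.9, 47.7 and 65.1 against 25.4, 29.0, 27.0 and 28.3 CPM and rose by 1.09 ± 0.16 (adjusted p = 0.00233). Without contralateral replicate 3 the 8 became 5. Cxcl11, a chemokine for T cells, moved the other way, at 1.07, 2.01, 1.27 and 1.03 against 2.48, 3.57, 2.15 and 2.26 CPM, a difference of -0.95 ± 0.28 (adjusted p = 0.0311, and 0.0502 to 0.0877 without any 1 of the contralateral libraries or of peritumoral replicates 3 and 4). Among MHC class I genes 3 of 11 rose, against 16.8% of all genes tested, led by the peptide transporter Tap1 at 0.91 ± 0.20 (adjusted p = 0.0108). Of 13 dendritic cell and MHC class II genes none rose and 2 fell, near the 12.7% over all genes. The 2 that fell were H2-Eb1 (-0.56 ± 0.17) and H2-Ab1 (-0.54 ± 0.18). Both lost the call without any 1 of the 8 libraries other than peritumoral replicate 1, with adjusted p up to 0.122. Without peritumoral replicate 1, 1 rose and 4 fell, and without peritumoral replicate 3, 2 rose and 0 fell. By limma and with upper-quartile factors 5 fell. The number was 4 with the replicate block and in 1 fit of all 24 libraries, and by DESeq2 1 rose and 4 fell. The summed level of the list was 1751, 1397, 988 and 1148 CPM in peritumoral and 1736 to 1913 CPM in contralateral libraries, with overlap.

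Cell cycle genes were higher in peritumoral fat by a wide margin. Of 36 genes 35 rose, and the exception, the transcription factor E2f1, differed by 0.24 ± 0.12 (adjusted p = 0.145). The median was 2.21, and 32 to 35 were called when single libraries were left out. The summed level was 525.4, 1509, 866.6 and 1091 CPM in peritumoral replicates 1 to 4 and 205.2 to 305.7 CPM in contralateral ones. Mki67, the proliferation marker (chromosome 7, 135689788 to 135716379, minus strand), read 89.8, 167.3, 139.8 and 157.2 against 28.5, 52.0, 27.2 and 28.8 CPM and rose by 2.03 ± 0.25 (adjusted p = 0.00121). Tumor-free fat on HFD read 42.0 CPM for the same gene. The mitotic kinesin Kif11 rose by 2.59 ± 0.31, the checkpoint kinase Bub1 by 3.54 ± 0.53, cyclin A2 (Ccna2) by 3.04 ± 0.46 and cyclin B1 (Ccnb1) by 3.08 ± 0.52. Top2a, the topoisomerase of dividing cells, read 43.7, 212.1, 97.0 and 138.5 against 24.3, 23.5, 10.6 and 11.5 CPM and rose by 2.83 ± 0.47. The replication clamp Pcna rose by 0.80 ± 0.11. Peritumoral replicate 2 was highest and replicate 1 lowest for each of Mki67, Kif11, Bub1, Ccna2 and Top2a.

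Promoters of cell cycle genes are known to carry CCAAT boxes, bound by NF-Y, and the cell cycle homology region TTTGAA, bound by complexes that silence these genes in resting cells. RefSeq promoters were found for 30 of the 36 genes. CCAAT on either strand stood in 24 of them (80.0%) and in 41.1% of the 27025 genes, and TTTGAA in 15 (50%) and in 20.2%. The upstream parts of the 3 called genes that hold both motifs before the start site and have the lowest p are shown with both motifs in capitals, to let their order be seen. They lie at chr19:37376307-37376381 (plus strand, Kif11), chr7:135716442-135716597 (minus, Mki67) and chr9:70421555-70421751 (minus, Ccnb2).
Kif11: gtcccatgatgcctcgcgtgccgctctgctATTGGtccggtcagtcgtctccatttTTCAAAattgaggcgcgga
Mki67: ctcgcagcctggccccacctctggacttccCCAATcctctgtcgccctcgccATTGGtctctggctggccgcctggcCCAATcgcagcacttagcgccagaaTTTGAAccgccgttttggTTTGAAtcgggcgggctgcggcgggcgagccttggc
Ccnb2: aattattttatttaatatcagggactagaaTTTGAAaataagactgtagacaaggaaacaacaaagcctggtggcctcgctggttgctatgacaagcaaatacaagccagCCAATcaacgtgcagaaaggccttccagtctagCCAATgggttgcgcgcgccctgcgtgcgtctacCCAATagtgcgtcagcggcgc
Mki67 and Ccnb2 each show 3 CCAAT boxes in this window, and Kif11 shows 1. The share of these letters by chance depends on base composition, so the percentages are a description.

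Adipocyte genes were lower. Of 22 mature adipocyte markers 18 fell and none rose, each of the 22 had a negative log2 fold change, and the median was -0.75. Their summed level was 36920, 19100, 24170 and 25460 CPM in peritumoral and 42000 to 44950 CPM in contralateral libraries. Plin1, the lipid droplet coat (chromosome 7, 79721164 to 79732776, minus strand), read 618.9, 322.6, 377.0 and 340.9 against 887.1, 799.2, 798.9 and 724.2 CPM and fell by 0.95 ± 0.20 (adjusted p = 0.00904). Adipoq (chromosome 16, 23146536 to 23158028, plus strand) read 2184, 1163, 1420 and 1512 against 2566, 2564, 2585 and 2787 CPM and fell by 0.74 ± 0.18 (adjusted p = 0.0159). The adipogenic transcription factors Cebpa and Pparg fell by 1.04 ± 0.22 and 0.65 ± 0.14. Lipoprotein lipase (Lpl) fell by 0.85 ± 0.20, from 3900 to 5010 CPM in contralateral to 1788 to 3385 CPM in peritumoral fat. The lipid-binding protein Fabp4 and the fatty acid importer Cd36 missed the threshold, at -0.51 ± 0.19 (adjusted p = 0.0701) and -0.51 ± 0.19 (0.0647), and passed it by DESeq2 at 0.0158 and 0.0168 and without peritumoral replicate 1 at 0.00742 and 0.0294. Peritumoral replicate 1 was the highest of its group for each adipocyte gene named here. Without contralateral replicate 1 or 4, or peritumoral replicate 3, the 18 became 11.

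Genes that mark expanding, lipid-storing adipocytes fell by a similar amount, 6 of 7 (median -0.86). Leptin (Lep), the hormone that reports fat stores, read 1471, 1058, 1119 and 1416 against 1731, 2130, 2187 and 3219 CPM and fell by 0.86 ± 0.20 (adjusted p = 0.0134). The secreted factor Bmp3 read 150.3, 99.3, 111.6 and 118.4 against 187.0, 208.8, 216.7 and 241.6 CPM and fell by 0.83 ± 0.13, and the imprinted genes Nnat and Peg3 fell by 0.97 ± 0.22 and 0.88 ± 0.19. Lipid droplet and lipolysis genes fell in 8 of 14 (median -0.72), and the 8 became 5 without contralateral replicate 4. Hormone-sensitive lipase (Lipe) read 811.7, 440.6, 594.9 and 533.8 against 1070, 987, 1057 and 1066 CPM and fell by 0.81 ± 0.17, adipose triglyceride lipase (Pnpla2) by 0.75 ± 0.15 and its inhibitor G0s2 by 0.70 ± 0.12. Enzyme and inhibitor thus changed in one direction.

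**Figure D3:**
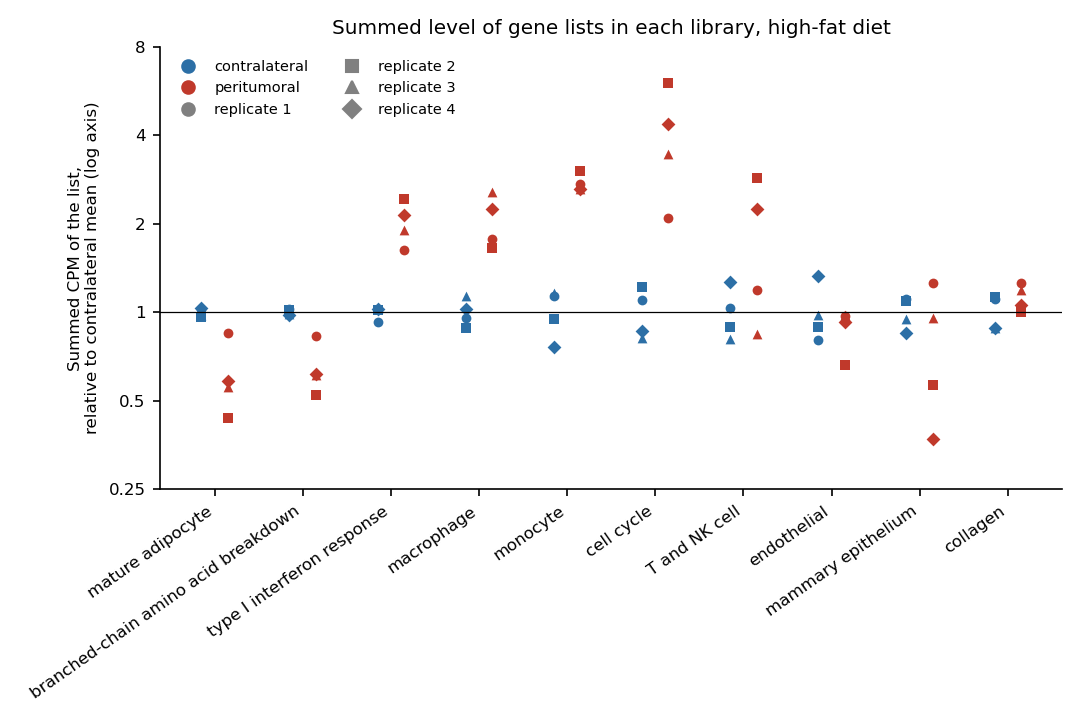
Summed CPM of 10 gene lists in each HFD library, relative to the mean of the 4 contralateral libraries (log axis), with contralateral in blue, peritumoral in red and marker shapes for replicates 1 to 4. Adipocyte and branched-chain amino acid genes lie below 1 and interferon, macrophage, monocyte and cell cycle genes above 1 in each peritumoral library, while the other 4 lists overlap.

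The breakdown of branched-chain amino acids, which feeds acetyl and propionyl units into adipocyte metabolism, was lower almost throughout. Of 17 genes 16 fell and none rose (median -0.56), with 12 to 16 called when single libraries were left out. The summed level was 1544, 972.9, 1136 and 1145 CPM in peritumoral and 1819 to 1912 CPM in contralateral libraries. Pccb, a subunit of propionyl-CoA carboxylase (chromosome 9, 100982032 to 101034898, minus strand), read 99.8, 60.1, 66.0 and 72.9 against 127.1, 135.5, 123.4 and 123.7 CPM and fell by 0.76 ± 0.14 (adjusted p = 0.0056). Bckdha, a subunit of the committing dehydrogenase, fell by 0.72 ± 0.13, isovaleryl-CoA dehydrogenase (Ivd) by 0.70 ± 0.14 and the methylmalonate semialdehyde dehydrogenase Aldh6a1 by 0.80 ± 0.17. The contralateral libraries lay within a narrow band for Bckdha, from 106.4 to 108.5 CPM, and the peritumoral ones spread from 52.6 to 86.1 CPM.

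Other mitochondrial and lipid genes fell with less stable counts. Fatty acid oxidation genes fell in 13 of 17 (median -0.49), led by the short-chain and very-long-chain dehydrogenases Acads (-0.64 ± 0.12) and Acadvl (-0.59 ± 0.11) and by Hadh (-0.72 ± 0.14), and the 13 became 8, 7 and 7 without contralateral replicate 1, contralateral replicate 4 or peritumoral replicate 3. Nuclear genes of the respiratory chain fell in 14 of 28, with a median of -0.30. The cytochrome oxidase subunit Cox8a read 133.2, 87.8, 96.9 and 95.1 against 155.8, 153.8, 153.5 and 150.2 CPM and fell by 0.56 ± 0.12. The 14 became 6, 6, 6 and 9 without contralateral replicates 1 to 4, 7 and 6 without peritumoral replicates 3 and 4, and 24 without peritumoral replicate 1 or by limma. None of 7 tested genes of the mitochondrial genome passed the test, and 2 fell without peritumoral replicate 1. Fatty acid synthesis genes fell in 8 of 19 (median -0.54), among them Acacb, which makes the malonyl-CoA that restrains oxidation, at -0.79 ± 0.19, and Mlxipl, the carbohydrate-responsive transcription factor, at -0.81 ± 0.19. Fasn, fatty acid synthase, differed by -0.90 ± 0.33 (adjusted p = 0.0645) with contralateral values from 594.2 to 1536 CPM, and the desaturase Scd1 by -0.60 ± 0.30 (0.15). Without peritumoral replicate 1 both passed, at 0.0311 and 0.0192. That 8 varied widely, at 2, 3 and 5 without contralateral replicates 1, 2 and 4, at 14, 3, 2 and 4 without peritumoral replicates 1 to 4, and at 14 by limma.

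Insulin response and thermogenic genes were lower too. Over all genes tested, 16.8% rose and 12.7% fell. Of 14 insulin response genes 10 fell (median -0.56), with the adaptor Irs2 at -0.62 ± 0.13, the transcription factor Foxo1 at -0.69 ± 0.17 and the kinase Akt2 at -0.50 ± 0.12. Irs2 read 64.8, 50.7, 59.6 and 43.3 against 87.6, 93.5, 83.8 and 73.4 CPM. The 10 became 5 without contralateral replicate 1 or 2 or peritumoral replicate 4, and 6 without contralateral replicate 3 or peritumoral replicate 2 or 3. Of 9 tested thermogenic genes 7 fell and 1 rose. The 1 that rose, the deiodinase Dio2, lost its call without contralateral replicate 1, 3 or 4 or peritumoral replicate 1 or 2 (adjusted p up to 0.0995) and by limma. The coactivator Ppargc1a fell by 1.02 ± 0.22, the muscle-type cytochrome oxidase subunit Cox8b by 1.13 ± 0.23 and the transcriptional regulator Prdm16 by 0.75 ± 0.15. The 7 became 4 without contralateral replicate 1, 2 or 4 or peritumoral replicate 2 or 3. Clock genes fell in 7 of 15 and rose in 2, the latter near the share over all genes. Among them were Per1 at -0.53 ± 0.08 and the repressor Nfil3 at 1.47 ± 0.24. The 7 became 3 without contralateral replicate 1 or 3 or peritumoral replicate 4, and 4 without contralateral or peritumoral replicate 2.

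**Figure D4:**
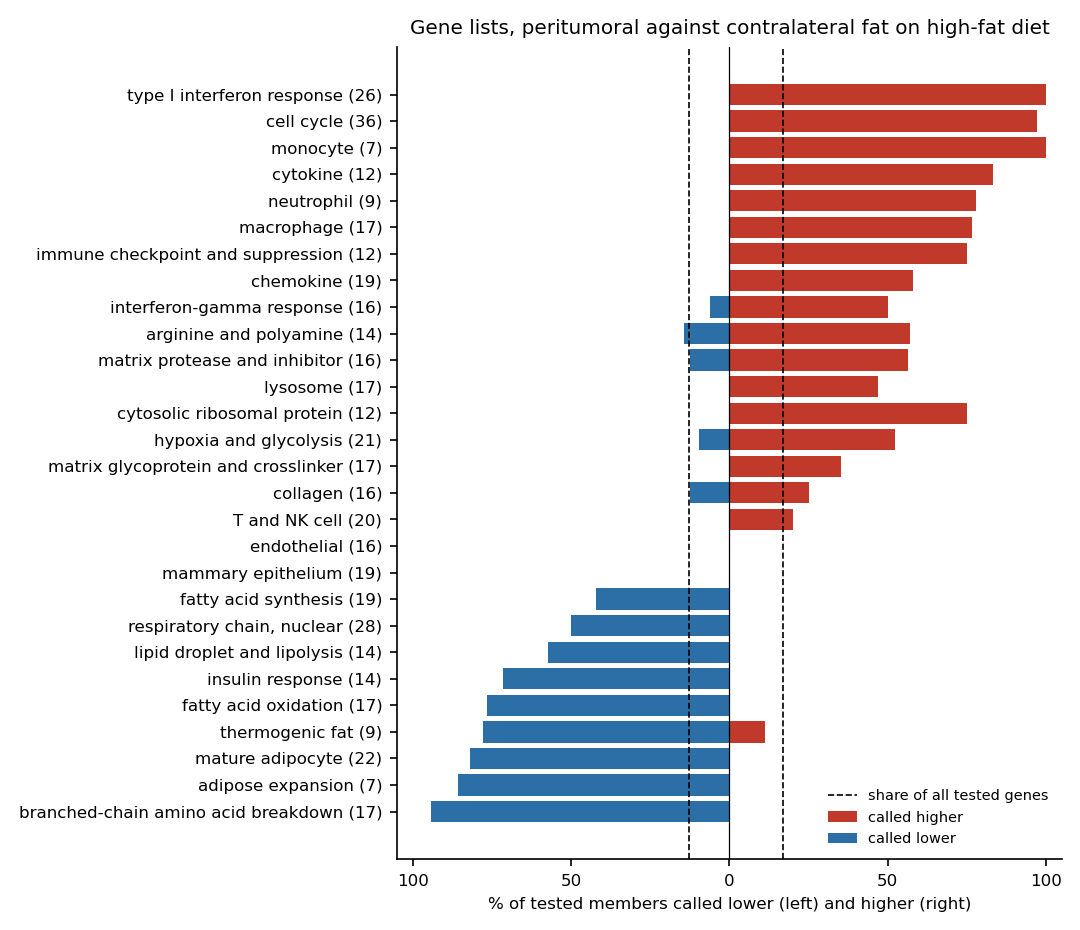
Share of the tested members of each gene list (number in brackets) called higher (red, right) or lower (blue, left) in peritumoral fat, with dashed lines at the shares over all tested genes, 16.8% and 12.7%. Immune, interferon and cell cycle lists extend right, adipocyte and fuel-burning lists extend left, and no member of the endothelial and mammary epithelial lists was called.

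Matrix genes changed member by member. Over all genes tested, 16.8% rose and 12.7% fell. Collagens rose in 4 of 16 and fell in 2 (median 0.04), the latter near that share. Col8a1, a short-chain collagen of vessel walls, read 21.5, 34.6, 38.1 and 29.9 against 9.74, 9.16, 8.19 and 12.7 CPM and rose by 1.65 ± 0.20, while Col3a1 differed by 0.54 ± 0.20 (adjusted p = 0.0669) and Col4a2, a basement membrane chain, fell by 0.51 ± 0.14, a call lost without contralateral replicate 1, 2 or 4 or peritumoral replicate 4 (adjusted p up to 0.0658). The 4 collagens that rose became 2 without contralateral replicate 3 or 4 or peritumoral replicate 4, and the 2 that fell became 4 without peritumoral replicate 1 and 0 without contralateral replicate 1, 2 or 4 or peritumoral replicate 4. Matrix glycoproteins and crosslinkers rose in 6 of 17 and fell in none, and 10 rose by limma. Tenascin C (Tnc), an adhesion-modulating glycoprotein of wounds, read 79.7, 259.7, 83.7 and 117.9 against 34.8, 26.9, 22.7 and 35.7 CPM and rose by 2.18 ± 0.38, and fibrillin 1 (Fbn1) by 0.95 ± 0.17. Among proteases and inhibitors 9 of 16 rose and 2 fell. The protease inhibitor Timp1 (chromosome X, 20870166 to 20874735, plus strand) read 34.4, 72.7, 26.3 and 43.0 against 3.15, 3.44, 2.34 and 2.57 CPM and rose by 3.95 ± 0.33 (adjusted p = 0.000251), whereas its relative Timp3 fell by 0.77 ± 0.17. The urokinase receptor Plaur rose by 2.28 ± 0.32 and the collagenase Mmp13 by 2.88 ± 0.56. Of 12 tested progenitor and fibroblast markers 4 rose and none fell, with Ly6a at 0.86 ± 0.09 and Thy1 at 0.62 ± 0.13. Pdpn, shared by activated fibroblasts and lymphatic vessels, rose by 1.40 ± 0.14. Of 11 activated fibroblast markers 5 rose and 1 fell (median 0.37). With single libraries left out, 4 to 5 rose and 0 to 3 fell. The actin gene Acta2 was lower, at -0.77 to -0.42 over the alternatives, and lost its call in 6 of 17. Of 6 lymphatic markers, Lyve1 and Pdpn rose, both also carried by other cells, and the lymphatic receptor Flt4 differed by -0.33 ± 0.18 (adjusted p = 0.183).

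Markers of other cell types that the sample could hold were checked by list. Of 9 tested mast cell markers 1 rose and 1 fell, and of 7 myelin and Schwann cell markers 1 fell. The shares that fell were near the 12.7% over all genes tested, and the mast cell share that rose was below the 16.8%. With single libraries left out, 0 to 2 mast cell markers and 0 to 2 Schwann cell markers fell. None of 5 red blood cell markers passed the test. None of 16 endothelial markers passed the test (2 fell by DESeq2), with summed levels of 714.1 to 1061 CPM in peritumoral and 872.7 to 1437 CPM in contralateral libraries. Of the 16, 14 had a negative log2 fold change (median -0.24). None of 19 tested mammary epithelial markers did either, with 3 lower without peritumoral replicate 1, 3 with the replicate block and 2 by limma. Of the 19, 18 had a negative log2 fold change (median -0.48). Their summed level was 590.0, 265.3, 450.4 and 173.6 CPM against 400.6 to 523.4 CPM, so the peritumoral libraries lay on both sides of the contralateral ones, and the luminal keratin Krt18 read 117.3, 41.3, 80.3 and 31.8 against 99.4, 71.0, 86.1 and 80.6 CPM. T and NK cell markers rose in 4 of 20 and B cell markers in 2 of 14, both near the 16.8% over all genes, and none fell. The T and NK cell markers had no gap between groups in any of the 20 and summed to 25.89 to 87.54 against 24.81 to 38.78 CPM. Those 4 became 1 without contralateral replicate 1, 0 without contralateral replicate 2, 3 or 4 or peritumoral replicate 2 or 4, 9 without peritumoral replicate 3, and 1 by limma. The B cell markers summed to 131.7 to 457.4 against 163.4 to 287.8 CPM. The 2 B cell markers became 1 without peritumoral replicate 2 or 4 or any contralateral replicate, 3 without peritumoral replicate 1 and 7 without peritumoral replicate 3. The 7 markers of lymph node stroma and high endothelium summed to 3.486, 30.52, 9.052 and 9.441 CPM in peritumoral and 1.783 to 10.47 CPM in contralateral libraries. Ccl21a and Ccl19 were at 0 in the 8 libraries. Of the 2 that could be tested, the B cell attractant Cxcl13 rose by 1.69 ± 0.49 (adjusted p = 0.0288), a call lost without contralateral replicate 1, 2 or 4 or peritumoral replicate 2 or 3 (adjusted p up to 0.0743), and Glycam1 differed by 1.43 ± 1.47 (0.478). The sum of the skeletal muscle markers was 305.5 CPM in peritumoral replicate 2 and 40.31 to 94.98 CPM elsewhere, and the giant sarcomere gene Ttn stood at 122.0 CPM in that library and at most 7.81 CPM in the other 7. The part of these lymphocyte and muscle values in the other results was not tested, and without peritumoral replicates 1 and 2 together the comparison called 5072 genes, 2942 higher and 2130 lower.

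Hypoxia and glycolysis genes rose in 11 of 21 and fell in 2 (median 0.38). The glucose transporter Slc2a1 read 26.9, 105.9, 66.5 and 54.5 against 18.6, 16.4, 12.6 and 13.1 CPM and rose by 2.07 ± 0.36 (adjusted p = 0.00437), the pyruvate kinase gene Pkm by 1.02 ± 0.17 and the oxygen-sensing transcription factor Hif1a by 0.74 ± 0.11. Bnip3, a mitophagy gene that hypoxia induces in many cells, moved the other way, at -0.74 ± 0.14. The 11 became 7 without contralateral replicate 1, 2 or 3 or peritumoral replicate 4. Vegfb, a growth factor of the vascular family, fell by 0.77 ± 0.16. Heme oxygenase 1 (Hmox1), which degrades heme in macrophages and is an antioxidant target, read 210.7, 303.0, 477.7 and 544.0 against 34.4, 31.5, 51.4 and 66.7 CPM and rose by 3.07 ± 0.34 (adjusted p = 0.00079). The cystine importer Slc7a11 rose by 2.34 ± 0.43. Of 11 antioxidant genes 3 rose and 2 fell (median -0.33). With single libraries left out, 3 rose and 0 to 3 fell. Catalase (Cat) was lower, at -0.91 to -0.56 over the alternatives, and lost its call in 5 of 17. Among the 19 genes of the endoplasmic reticulum and integrated stress response 5 rose and 4 fell, with the chaperone Hspa5 at 0.64 ± 0.10, the one-carbon enzyme Mthfd2 at 1.64 ± 0.33 and the serine synthesis enzyme Phgdh at -0.87 ± 0.17, and the 4 became 2 without contralateral replicate 2 or peritumoral replicate 2 or 3. These shares compare with 16.8% higher and 12.7% lower over all genes tested. Lysosomal genes rose in 8 of 17 and fell in none. Cytosolic ribosomal protein genes rose in 9 of 12 (median 0.45), and the 9 became 5, 2, 3 and 3 without contralateral replicates 1 to 4. Many ribosomal protein genes have near-identical pseudogene copies, so their separate counts are uncertain. Among secreted regulators, the Wnt antagonist Sfrp2 rose by 1.01 ± 0.18 and the ligand Wnt5a fell by 0.66 ± 0.13, and Tgfb1, the fibrosis-linked growth factor, rose by 0.78 ± 0.14. Of 12 tested TGF-beta and BMP ligands and antagonists 2 rose and 3 fell (median -0.42). Among 11 tested Wnt ligands and antagonists 3 rose and 3 fell (median -0.41).

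The same comparison on Chow was set beside these results to see where the HFD difference was larger. Chow peritumoral against contralateral fat called 0 of 16057 genes by edgeR (0.00%), with 1381 genes (8.60%) at an unadjusted p under 0.05 and 19 called by DESeq2. Chow peritumoral replicate 4 held 9130125 counts, the fewest of the 24 libraries, with 35.8% mitochondrial ribosomal RNA, and edgeR also called 0 without it. Skeletal muscle markers summed to 97.4 to 5470 CPM in Chow contralateral and 50.98 to 3079 CPM in Chow peritumoral libraries. The part of these values in the Chow results was not tested. The test of the difference itself, the interaction of diet with tumor side over 16 libraries, called 0 of 16859 genes by edgeR (0.00%), with 3349 (19.9%) at an unadjusted p under 0.05, and 727 (4.31%) by DESeq2. The count moved with the tool and model, to 1431 by limma and 333 in 1 fit of all 24 libraries. It also moved with single libraries, since edgeR called 1911 genes (11.2% of those tested) without HFD peritumoral replicate 1, 68 without Chow peritumoral replicate 3 and 1 without Chow contralateral replicate 4. The gap between the diets is therefore given as values and not as an established difference. Among genes named by the rule, the lowest adjusted p of the interaction, 0.0521, was shared by Slfn1, Oasl2, Zbp1, Pycard, Oasl1, Ifit1, Cd5l and Oas3, and 5 of these 8 belong to the type I interferon list.

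In the type I interferon list the median side difference was 1.20 on HFD and 0.30 on Chow. Of its 26 genes, 24 had an unadjusted interaction p under 0.05 and 15 were called by DESeq2, against 19.9% and 4.31% of all genes, and 22 were called by edgeR without HFD peritumoral replicate 1, against 11.2%. Oasl2 read 62.8 to 80.8 CPM in Chow peritumoral and 45.9 to 68.7 CPM in Chow contralateral fat, with overlap, and its interaction was 1.16 ± 0.18. The Chow contralateral level was thus above the HFD contralateral one of 30.6 to 38.0 CPM, and the HFD peritumoral level of 71.6 to 98.3 CPM overlapped the Chow peritumoral one. Pycard, the inflammasome adaptor, read 13.5 to 16.2 CPM in HFD peritumoral fat and 6.07 to 9.58 CPM over both Chow groups, with an interaction of 1.16 ± 0.20. Cd5l, a protein secreted by macrophages, had an interaction of 3.46 ± 0.61. For branched-chain amino acid genes the medians were -0.56 and -0.07, and 10 of 17 were called by DESeq2. For mature adipocyte markers the medians were -0.75 and -0.18, with 4 of 22 called by DESeq2, and for cell cycle genes 2.21 and 0.86, with 8 of 36. The creatine enzyme Gatm read 9.70 to 14.5 CPM in Chow peritumoral and 8.57 to 12.3 CPM in Chow contralateral fat, with an interaction of 1.6 ± 0.38 (adjusted p = 0.0907). Chl1 read 5.16 to 55.2 CPM in Chow peritumoral and 3.58 to 6.10 CPM in Chow contralateral fat, with overlap, a difference of 2.52 ± 0.91 that did not pass the test (adjusted p = 0.562), and its interaction was 1.93 ± 0.95 (0.278).

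**Figure D5:**
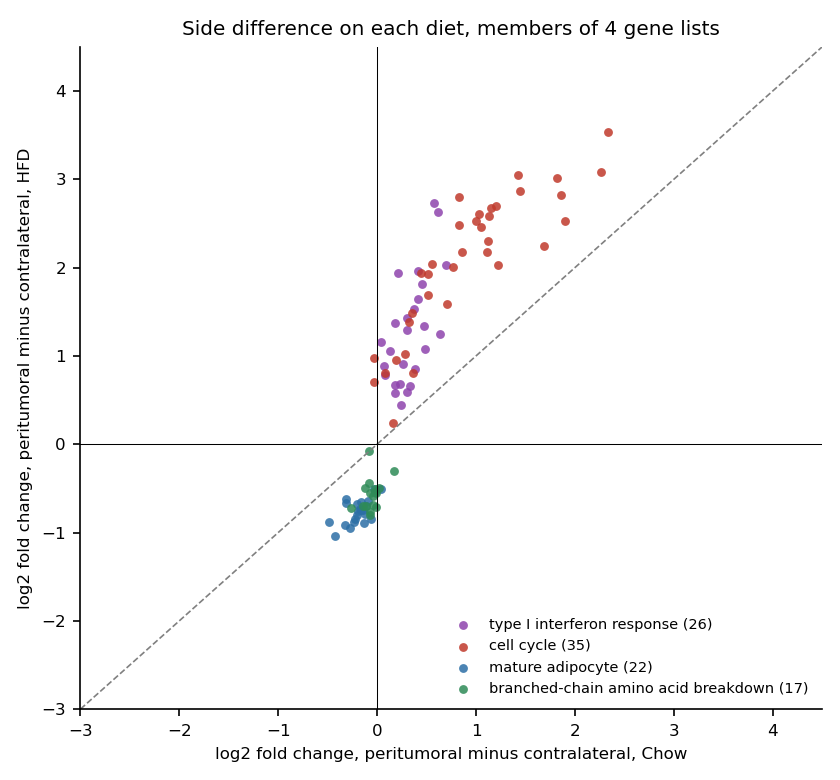
log2 fold change of peritumoral minus contralateral fat on Chow (x axis) and on HFD (y axis) for tested members of 4 gene lists, with equal change on the dashed line. Type I interferon and cell cycle members lie above the line and most adipocyte and branched-chain amino acid members below it, while edgeR called no interaction with all 16 libraries.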

How the data were processed

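The authors deposited 1 matrix of read counts, 39017 genes by 24 libraries, and per the submitters' processing notes used mm10, TopHat and DESeq, without versions. The sources used here do not state whether reads were counted by strand, so overlapping and antisense genes, such as Mecomos, and near-identical copies have uncertain separate counts. The counts were tested with edgeR 4.0.16 under R 4.3.3, as a robust quasi-likelihood fit with TMM normalization, after filterByExpr at its defaults (minimum count 10, minimum total 15). The fits held the 8 HFD libraries, the 8 Chow libraries and, for the interaction, all 16. A gene was called at a Benjamini-Hochberg adjusted p under 0.05, and printed CPM used TMM factors over 24 libraries. Fits were tested on simulated data, where DESeq2 made a larger share of false calls than edgeR in each comparison. Replicates differed by more than sampling noise, so none was merged.

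The comparison and the 52 gene lists (773 genes) were chosen with earlier results of these data known. Genes were named by a rule: the creatine genes, the 12 with the lowest p in each direction (log2 fold change of at least 1, at least 5 CPM, no overlap, no placeholder symbols), up to 4 called members of each list with 1 in the other direction and up to 2 uncalled, and 8 for the interaction. Outside that rule, and picked after their values were seen, are Adgre1, Aldh6a1, Bub1, C1qa, Ccl19, Ccl21a, Ccl6, Ccl9, Ccna2, Ccnb1, Cebpa, Cxcl2, Cxcl5, Folr2, Foxo1, Gm23935, Ifih1, Il6, Irf7, Isg15, Lep, Mecomos, Mfsd4b2, Pcna, Pparg, Ptgs2, Slc7a1, Tnf, Top2a and those under other observations. Adipoq and Lpl served as identity markers, and Oas1a and Stat2 were shown for their promoters. Alternatives used DESeq2 1.42.0, limma 3.58.1 (voom with quality weights), other size factors and filters, a joint fit of 24 libraries, the replicate number as a block and leaving out libraries.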

Additional observations from a re-analysis of the deposited data

Results flagged for a closer look

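In 28 of 398 groups of 4 values, 1 library lay apart from the other 3 by more than Dixon's 95% limit, where chance alone flags about 1 in 20 groups. Peritumoral replicate 1 stood nearest to the contralateral level in most of its cases. It was the lowest of its group for Itgam (158.5 CPM), Csf3r (14.28 CPM), Oasl2 (71.62 CPM) and Ifih1 (87.08 CPM), and the highest for Cib2 (33.45 CPM), Acads (54.64 CPM), Acadvl (36.37 CPM), the respiratory subunit Ndufb9 (86.35 CPM), the monocyte chemokine receptor Ccr2 (128.7 CPM) and Vegfb (39.75 CPM). Peritumoral replicate 2 was lowest for Acacb (21.44 CPM) and highest for the T cell chemokine Cxcl10 (19.77 CPM), the sarcomere gene Ttn (122 CPM) and the ribosomal protein gene Rpl4 (694.9 CPM). Peritumoral replicate 3 was highest for Ly6a (209.9 CPM).

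On the contralateral side, replicate 1 was highest for Mmp13 (1.815 CPM), Rhox5 (3.147 CPM), Tex19.1 (0.7261 CPM), Hmga2 (6.838 CPM) and Slfn4 (6.475 CPM). Replicate 2 was highest for Mki67 (52.01 CPM) and lowest for Lipe (987 CPM) and Oas3 (3.812 CPM), and replicate 3 was lowest for Tap1 (31.33 CPM). Replicate 4 was highest for Hr (195.7 CPM), Adipoq (2787 CPM) and Cxcr2 (1.817 CPM) and lowest for Zfp503 (22.24 CPM).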

How the results depend on the processing

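On HFD, the 4610 calls were 2750 to 6425 when single libraries were left out, with 1783 to 3440 higher and 967 to 2985 lower, and 4003 to 6332 under the other alternatives, with 5072 when peritumoral replicates 1 and 2 were both left out, an alternative added after seeing the data. Upper-quartile factors turned the balance on HFD, with 2363 higher and 2435 lower. The 130 genes lower by over 2-fold were 242 by limma and 210 in 1 fit of all 24 libraries. On Chow, DESeq2 called 19 genes (11 higher, 8 lower) and no low-count filter 3 (2 higher, 1 lower), against 0 in the edgeR fit. Leaving out single libraries called 0 to 1 there, with 0 to 1 lower. For the interaction, DESeq2 called 727 (361 higher, 366 lower), no low-count filter 7 (5 and 2), 1 fit of all 24 libraries 333 (249 and 84) and limma 1431 (877 and 554), the last also added after seeing the data. Leaving out single libraries called 0 to 1911, with 0 to 1112 higher and 0 to 799 lower. The cause was not tested.

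Of 199 genes recomputed, 180 were called and 144 of these stayed called in each alternative, while 36 lost the call in at least 1, 13 of them only on leaving out a library. Ckmt1, never called, ranged from -0.6137 to 0.0841 on leaving out single libraries and changed sign in 2 of them, at 0.0841 without contralateral replicate 2 and 0.0302 without peritumoral replicate 4.

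With the replicate block, HFD gave 5144 calls (2712 higher, 2432 lower), Chow 0, and the interaction 148 (111 higher, 37 lower), and fatty acid synthesis genes fell in 14 of 19. Deviations of same-numbered libraries correlated at -0.13, 0.12, 0.23 and 0.38, so the numbers were not taken to pair the samples, and 2 of the 4 peritumoral libraries correlated best with their own number. Depth limits genes of a few counts, such as Il6, Cxcl5 and Ckmt1.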

Other observations

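Several genes of germ cells or embryos, picked after their values were seen, were near absent in tumor-free fat on HFD and present in peritumoral fat. The X-linked homeobox gene Rhox5 read 3.54, 41.2, 14.9 and 20.3 CPM in peritumoral replicates 1 to 4 and 3.15, 0.492, 0 and 0 CPM in contralateral ones, a difference of 4.44 ± 1.01 (edgeR adjusted p = 0.0129), with 0.0148 CPM in tumor-free fat. Tex19.1, a germ-line and placental gene, read 1.07, 13.2, 5.55 and 8.53 against 0.726, 0.0615, 0 and 0.0627 CPM (5.01 ± 0.95, adjusted p = 0.00659). The chromatin protein gene Hmga2, active in embryos, read 3.71, 45.5, 20.1 and 40.1 against 6.84, 1.23, 0.554 and 0.376 CPM (3.60 ± 0.91, adjusted p = 0.0183). Nxf3, of the RNA export family, read 2.53, 26.2, 11.7 and 15.98 against 2.66, 0.676, 0.123 and 0.125 CPM (3.96 ± 0.87, adjusted p = 0.0111). In each of these genes peritumoral replicate 2 was highest and replicate 1 lowest of its group, and contralateral replicate 1 was highest of its own. For Hmga2 and Nxf3 contralateral replicate 1 read above peritumoral replicate 1, so the groups overlapped. Hmga2 lost its call without contralateral replicate 2 or 3 or peritumoral replicate 2, and with no low-count filter (adjusted p up to 0.0899 over the alternatives). Rhox5 and Nxf3 lost theirs with no low-count filter, at 0.0663 and 0.056. With the replicate block Hmga2, Rhox5 and Nxf3 lost their calls too. The part of these values in the other results was not tested.

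Serpinb2, a protease inhibitor of macrophages and other stressed cells, held 2216 counts over the peritumoral libraries and 3 over the contralateral ones, a ratio of 703 (95% counting interval 240 to 3410, counting error only). Its levels were 17.3, 89.3, 2.72 and 18.8 CPM in peritumoral replicates 1 to 4, a wide spread. Slfn4, a myeloid interferon-response gene, read 40.8, 84.4, 84.8 and 54.4 CPM against 6.47, 3.50, 3.26 and 3.45 CPM and rose by 3.99 ± 0.31 (edgeR adjusted p = 0.000194).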
